A study of Solanum pimpinellifolium with 6 samples.

Results

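Leaves of the wild tomato LA2093 (Solanum pimpinellifolium), a heat-tolerant accession, were compared after 8 h at a moderately elevated temperature (33/33 °C day and night, MET) and after 8 h at normal temperature (26/18 °C, NT). The comparison rests on 2 of the 6 libraries of the study, 1 small RNA (sRNA) library for each of these temperatures. All 629 distinct sequences in the authors' list of miRNAs were used, 539 with names taken from known plant miRNAs and 90 predicted ones with names starting in PC. The seedlings of both groups were grown alike, without any transgene, but those kept at MET also received 1 more irrigation with water a day, so heat and watering cannot be told apart. Leaves of 5 seedlings were mixed as a replicate, and how many mixtures went into a library is not given. With 1 library per temperature the libraries allowed no replicate check, and every test below compares these libraries and not the temperatures. The paper also measured some of these miRNAs by quantitative real-time PCR in replicate samples. At 8 h of MET it reports spi-miR159 lower, and spi-miR319a and spi-miR408b-3p_stu higher, than the control, opposite to the libraries. It reports spi-miR168a-5p and spi-miR171d lower and PC-49-3p higher at 8 h, the same directions as in the libraries. The legend of the PCR figure gives its control as the start of the time course, whereas the NT library was taken at 8 h. These directions are thus set against unlike controls, and the PCR values were not used here. The list holds no leaf marker, so the tissue label could not be checked.

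Plant miRNAs are cut from hairpin precursors by a Dicer-like enzyme, which leaves a duplex of 5′ and 3′ arms. Usually 1 arm is loaded into an Argonaute protein and guides the cleavage of transcripts to which it pairs almost perfectly. In leaves, most of the long-conserved families act on transcription factors of development and hormone signalling, while families such as miR482 and the miR6022 to miR6027 group of the tomato and tobacco family act on disease-resistance genes. Guides of 22 nt, unlike most of those of 21 nt, are known to start the production of secondary small RNAs from the transcripts they cut.

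The sequences that the differences turn on are shown first, as the list gives them (DNA letters, 5′ to 3′), with the seed, bases 2 to 8, in capitals. A selection of well-read sequences called higher in MET came from different families, and no seed is shared between the families shown here:
spi-miR159_csi: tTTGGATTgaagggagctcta
spi-miR6024: tTTAGCAAgagttgttttacc
spi-miR167a: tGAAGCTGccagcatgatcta
PC-49-3p: cTATGAGAtaagttcaacgtg
spi-miR396a-5p: tTCCACAGctttcttgaactg
spi-miR396a-3p: gTTCAATAaagctgtgggaag
spi-miR6023-p3: tTACTACGgtcaggaatcttat
spi-miR6026: tTCTTGGCtagagttgtattgc
spi-miR482e-5p: tGTGGGTGgggtggaaagatt
spi-miR169f-p5_nta: aGAGTGGAttgcagccaggga

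A selection of the sequences called lower in MET follows, together with the abundant spi-miR166a, to which the sequence with the largest difference is close:
spi-miR166m_gma: gCTGACCAggcttcattcccc
spi-miR166a: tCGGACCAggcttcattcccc
spi-miR894_ppt: cGTTTCACgtcgggttcacca
spi-miR408b-3p_stu: tGCACTGCctcttccctggct
spi-miR408-3p_mtr: tGCACTGCctcttccctggctttt
spi-miR6173_hbr: tAGCCGTAaacgatggatact
spi-miR169e-3p: tGGCAAGCatctttggcgact
spi-miR5139_rgl, 21 nt: cGAAACCTggctctgatacca
spi-miR5139_rgl, 19 nt: aAACCTGGctctgatacca
spi-miR9470-p5: tTGCTAGGtgggcaaaggtaa

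The listed sequences held 424962.9 raw reads in the MET library and 301702.3 in the NT library. A sequence was called higher or lower where its normalized reads, set against those of all other listed sequences, gave a p-value of 0.05 or less by both the chi-square and Fisher's exact tests and the log2 ratio of MET over NT was at least 1 in size. In all, 605 sequences had reads in at least 1 of the libraries. Of these, 46 (7.6%) were called higher and 32 (5.29%) lower in MET, 12.9% together. The calls comprised 34 higher and 27 lower among the conserved names, and 12 higher and 5 lower among the PC names. When the libraries were scaled by their valid reads instead, every log2 ratio moved up by 0.42 and the split became 73 higher and 22 lower (76.8% of the calls higher, against 59.0%). Scaling by the listed reads moved every ratio up by 0.18 and gave 46 higher and 21 lower.

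Counting error limited how firmly single sequences could be placed, and reads amplified without molecular identifiers are not independent molecules. Exact 95% intervals of the ratio, computed from the raw reads and covering counting error only, lay wholly beyond a 2-fold difference for 8 sequences called higher and 5 called lower. For 18 of the 78 called sequences the interval included 0, and 27 had fewer than 20 raw reads in both libraries together. After Benjamini-Hochberg adjustment over all 605 sequences, 26 higher and 13 lower calls passed. On all 5 other scalings, 31 of the higher and 18 of the lower calls were made again. Sequences with a mean of over 1000 normalized reads gave 4 higher calls and 1 lower call among 23, and those with a mean of 10 to 100 gave 17 higher and 15 lower among 145. The median log2 ratio was 0.01 over the 270 sequences that both libraries held and that reached 10 normalized reads in MET or NT.

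**Figure D1:**
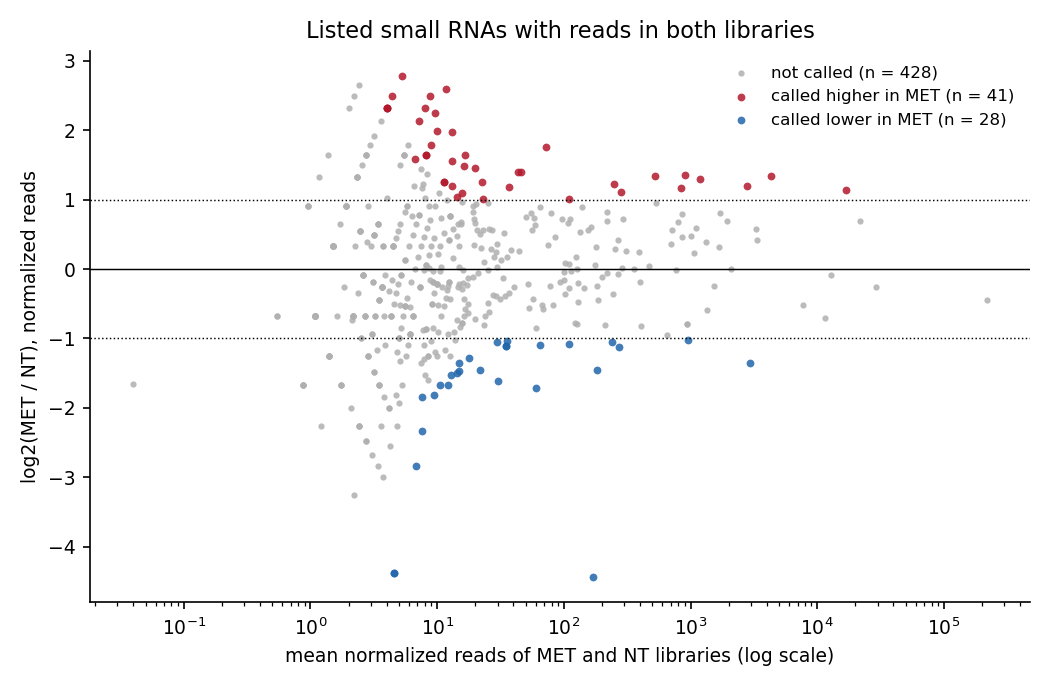
Log2 ratio of the normalized reads, MET over NT (vertical axis), against the mean normalized reads of the MET and NT libraries (horizontal log axis), for sequences with reads in both. Points are sequences, red where called higher in MET, blue where called lower and grey where not called; dotted lines mark ratios of 1 and -1, and the 41 higher and 28 lower calls shown lie mostly at low read numbers.

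The reads shifted between length classes. Sequences of 21 nt held 83.6% of the listed reads in MET and 88.6% in NT, while those of 22 nt held 14.1% in MET (95% exact binomial interval 14.0% to 14.2%) and 9.47% in NT (9.37% to 9.58%). Most of this lay in 1 sequence, spi-miR482e-3p, which held 7.59% of the reads in MET and 4.16% in NT; without it the 22 nt sequences held 6.52% in MET and 5.32% in NT. The 21 nt class was led by spi-miR166a, and its other sequences held 31.1% of the listed reads in MET and 25.7% in NT. Sequences of 20 nt held 1.27% in MET and 0.826% in NT.

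A length of 24 nt is typical in plants of sRNAs guiding DNA methylation. The paper gives it as the largest class of all sRNA reads, larger in MET than in NT. Within the list of miRNAs, 24 nt sequences held 0.710% of the listed reads in MET and 0.745% in NT, a log2 ratio of -0.07 (Fisher's exact test, p = 0.0921). Without spi-miR166a in the totals the shares were 1.49% in MET and 2.01% in NT (Fisher's exact test, p = 3.61e-26). Over the sequences with whole raw reads alone they were 0.625% in MET and 0.612% in NT (Fisher's exact test, p = 0.497), so the direction of the 24 nt share depended on the sequences counted. The first base changed little, as 94.7% of the reads in MET and 95.1% in NT started with T, the base that AGO1 of Arabidopsis prefers as U.

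**Figure D2:**
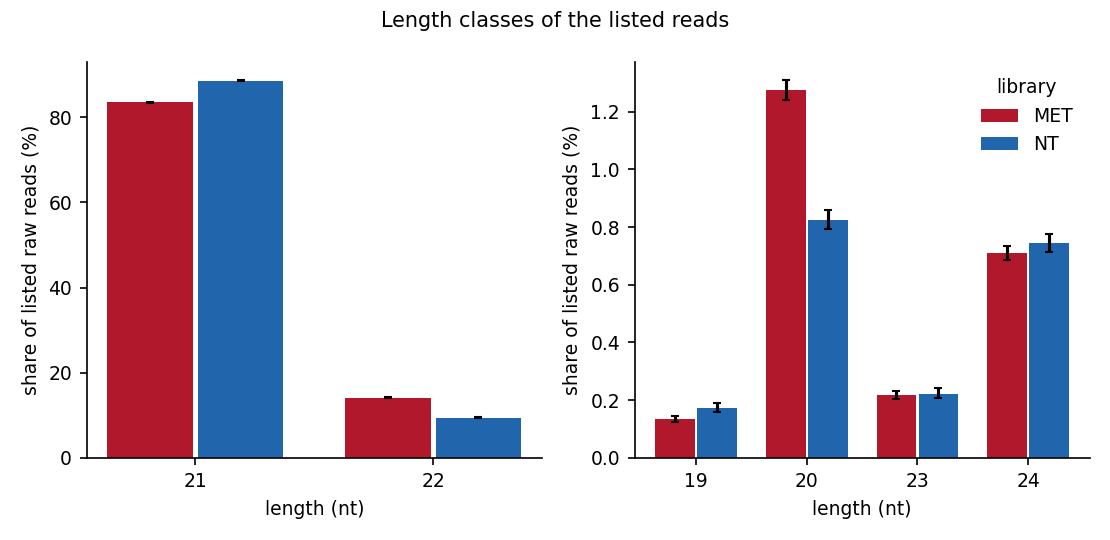
Share of the listed raw reads (vertical axis, %, linear from 0) in each length class (horizontal axis, nt) in the MET library (red) and the NT library (blue), with exact 95% binomial intervals. The 22 nt class held 14.1% in MET and 9.47% in NT, and the 24 nt class 0.710% and 0.745% in the same libraries.

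The family lists take every sequence of their miR numbers, opposite arms as well as guides. In the disease-resistance list, 8 of 38 tested sequences were called higher in MET and 0 were called lower, beside 7.6% and 5.29% of all sequences. Their median log2 ratio was 0.69 over 25 sequences, and the list as a whole held 16.5% of the listed reads in MET and 10.4% in NT. The best read of the called ones was spi-miR6024, known in tomato to cut transcripts of NB-LRR resistance genes. It had 7442 raw reads in MET and 1842 in NT, a log2 ratio of 1.34 (1.27 to 1.41). Its adjusted p-values passed, and it was called on all 5 other scalings.

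The miR6023 hairpin (chromosome 12, 64810612 to 64810845, minus strand, in the coordinates of the deposited list, which names no genome build) gave higher calls from both arms. The 3′ arm, spi-miR6023-p3, had 897 reads in MET and 221 in NT (1.35, 1.13 to 1.57), and the 5′ arm had 176 in MET and 55 in NT (1.00, 0.56 to 1.47). A further sequence of that name, spi-miR6023, had 238 reads in MET and 120 in NT (0.31, -0.01 to 0.64) and was not called. miR6023 acts on receptor-like resistance genes in tobacco and tomato relatives.

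Both arms of the miR6026 hairpin (chromosome 1, 832340 to 832581, plus strand) were also called higher. spi-miR6026 had 420 reads in MET and 112 in NT (1.23, 0.93 to 1.55), and spi-miR6026-p5 had 35 in MET and 8 in NT (1.46, 0.32 to 2.77). spi-miR6025_stu had 38 reads in MET and 10 in NT (1.25, 0.22 to 2.42). The remaining calls of the list came from 5′ arms of miR482 hairpins, spi-miR482e-5p with 461 reads in MET and 134 in NT (1.11, 0.83 to 1.40) and spi-miR482d-5p_stu with 23 in MET and 7 in NT (1.04, -0.22 to 2.51). The guides of these hairpins differed less: spi-miR482e-3p had 32268 reads in MET and 12536 in NT (0.69, 0.66 to 0.72), below the 2-fold threshold.

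Other members of the list stayed below the threshold. spi-miR482b, a 22 nt guide that starts secondary sRNAs from NB-LRR transcripts in tomato, had 14978 reads in MET and 9995 in NT (-0.09, -0.13 to -0.05). spi-miR6027-5p had 2890 in MET and 1119 in NT (0.69, 0.59 to 0.80), and spi-miR5300 had 1814 in MET and 868 in NT (0.39, 0.27 to 0.51). Sequences of 1 family thus differed among themselves: within miR482, ratios of the 22 nt members reaching 10 normalized reads ran from -0.09 to 0.69.

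**Figure D3:**
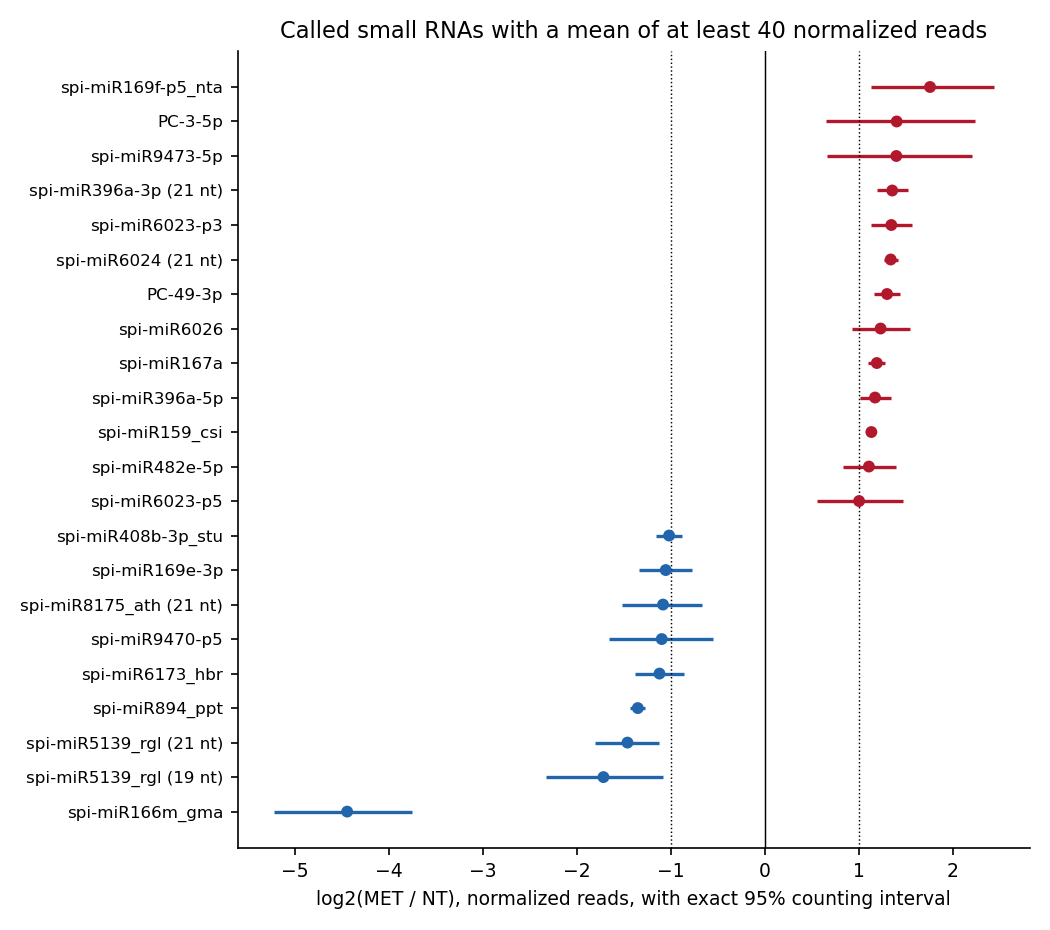
Log2 ratio of the normalized reads, MET over NT (horizontal axis), for called sequences with a mean of at least 40 normalized reads (rows). Points are ratios and bars exact 95% counting intervals, red for sequences called higher in MET and blue for those called lower; spi-miR166m_gma at -4.44 stands apart from all other sequences shown.

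For miRNAs of transcription factors, the higher calls lay in a few families. spi-miR159_csi, which guides cleavage of GAMYB-like transcripts, was the best-read called sequence, with 27946 reads in MET and 7978 in NT (1.13, 1.10 to 1.17). It held 6.58% of the listed reads in MET and 2.64% in NT. A form that differs from it by T20C (positions from the 5′ end, the base of spi-miR159_csi first), spi-miR159 of 21 nt, was also called higher, with 29 reads in MET and 6.5 in NT (1.48, 0.31 to 3.16). From another hairpin of the family, on chromosome 3, spi-miR159-p5 had 1294 reads in MET and 1217 in NT (-0.59), and its opposite arm spi-miR159-p3 had 445 in MET and 317 in NT (-0.18). miR319, whose sequence resembles miR159 but which acts on TCP factors, gave no higher call. The pair named spi-miR319a, which had equal reads in each library, had 826.5 reads each in MET and 896 in NT (-0.79, -0.93 to -0.65), and a 24 nt form, spi-miR319a-3p_mtr, was called lower on 2 reads in MET and 9 in NT (-2.84, -6.09 to -0.57). Because of this mixture the 13 sequences of the MYB- and TCP-targeting list had a median of -0.18, while their summed reads had a log2 ratio of 0.78.

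Of the sequences for auxin response factors, 3 of 15 were called higher (20.0%, beside 7.6% of all sequences) and 0 lower, with a median of 0.61 over 8 sequences. spi-miR167a (hairpin on chromosome 6, 45629356 to 45629471, minus strand), which acts on ARF6 and ARF8, had 4624 reads in MET and 1268 in NT (1.19, 1.10 to 1.28). The 3′ arm spi-miR167b-3p_stu had 30 in MET and 6 in NT (1.65, 0.36 to 3.20). A 22 nt form of spi-miR167b-5p, with the same seed as spi-miR167a, had 5.33 reads in MET and 0 in NT, at least 1.11-fold higher against a floor of 3 reads. spi-miR160a, which acts on other ARF transcripts, had 190 reads in MET and 82 in NT (0.54, 0.16 to 0.93) and was not called.

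The miR396 list, which acts on growth-regulating factors (GRFs), had 2 of 7 sequences called higher (28.6%, beside 7.6% of all), with a median of 0.58 over 5. The list places both on a hairpin on chromosome 12 (2905758 to 2905910, minus strand), and the 5′ sequence also on one on chromosome 7 (2628845 to 2628958, minus strand), so its reads cannot be assigned to either hairpin. spi-miR396a-5p had 1396.5 reads in MET and 388 in NT (1.17, 1.01 to 1.34), and spi-miR396a-3p had 1573 in MET and 385 in NT (1.36, 1.19 to 1.52). spi-miR396b, the most abundant of the family, differs from spi-miR396a-5p by the last base and had 4684 reads in MET and 1970 in NT (0.58, 0.50 to 0.65). It was not called.

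In the SPL-targeting list 1 of 17 sequences was called higher, a share of 5.88%, below the 7.6% of all sequences. This was spi-miR156f-5p_stu of 20 nt, with 61.5 reads in MET and 17 in NT (1.18, 0.40 to 2.06). The main guide of the family, spi-miR156a, had 1605.5 reads in MET and 670 in NT (0.59, 0.46 to 0.72). In the NF-Y-targeting list 1 of 19 sequences was called in each direction (5.26%, beside 7.6% of all called higher and 5.29% lower). spi-miR169f-p5_nta had 135 reads in MET and 25 in NT (1.76, 1.14 to 2.44), the largest ratio among called sequences with a mean of at least 40 normalized reads. spi-miR169e-3p had 186 reads in MET and 242 in NT (-1.05, -1.34 to -0.77), a call that was lost when scaled by valid or by listed reads. In the NAC-targeting list (miR164) 1 of 8 sequences was called higher (12.5%, beside 7.6% of all), spi-miR164-p3_stu, with 8 reads in MET and 1 in NT. The AP2-targeting miR172 sequences had a high median, 0.99 over 4, but 0 of 8 were called, beside 12.9% of all sequences. spi-miR172a had 84 reads in MET and 30 in NT (0.81, 0.19 to 1.46), and spi-miR172d-3p_stu had 45 in MET and 25 in NT (0.17, -0.56 to 0.94).

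**Figure D4:**
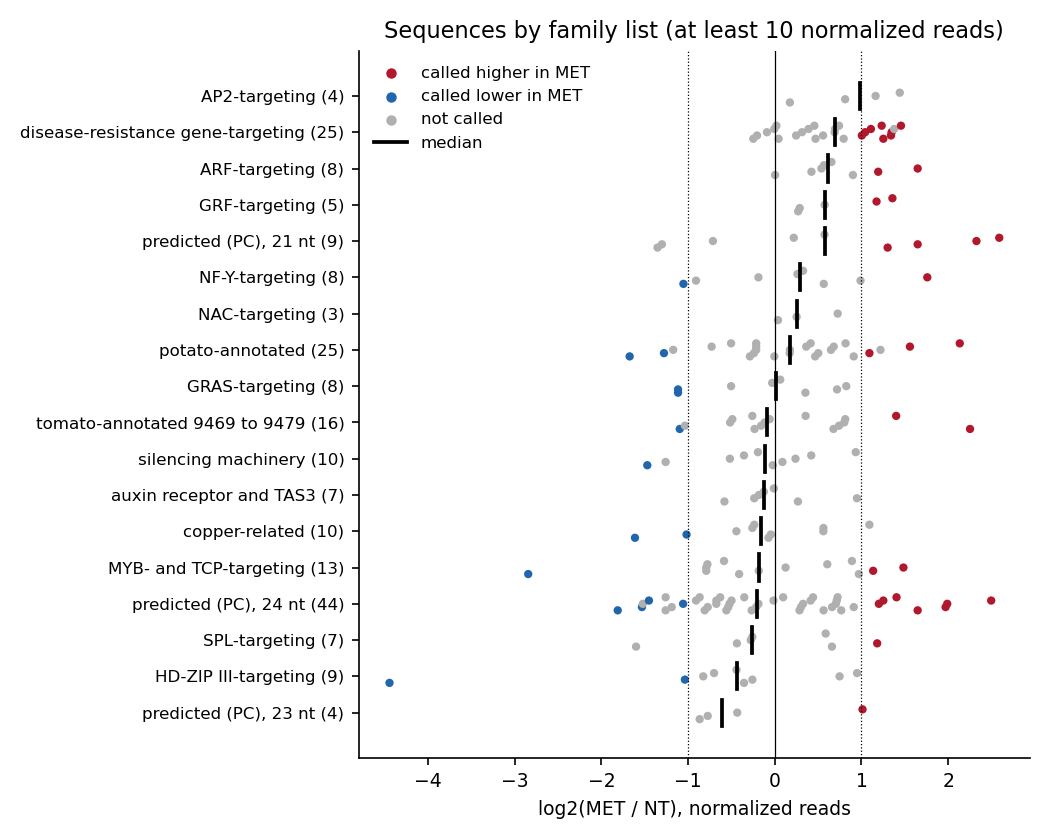
Log2 ratio of the normalized reads, MET over NT (horizontal axis), for sequences that reached 10 normalized reads in MET or NT and were read in both, by family list with at least 3 such sequences (rows, number of sequences in brackets). Red and blue points were called higher and lower in MET, grey points were not called, and black bars are medians, which run from -0.60 for PC names of 23 nt to 0.99 for the AP2-targeting list, with -0.44 for the HD-ZIP III-targeting one.

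The miR166 family, which acts on HD-ZIP III transcription factors of leaf polarity, had 4 of 21 sequences called lower and 1 called higher (beside 5.29% and 7.6% of all sequences). The largest difference of all sequences read in both libraries belonged to spi-miR166m_gma, with 18 reads in MET and 245.5 in NT (-4.44, -5.23 to -3.76). It differs from spi-miR166a by T1G and G3T, the second of which lies in the seed. spi-miR166a itself had 222946 reads in MET and 189767 in NT (-0.44, -0.45 to -0.43), and was not called.

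The other called sequences of the family were thinly read. spi-miR166g-3p_osa had 28 reads in MET and 36 in NT (-1.04, -1.80 to -0.28), spi-miR166a-3p_stu had 0.5 in MET and 6.5 in NT, and spi-miR166b-p5_stu had 0 in MET and 9 in NT, at least 4.79-fold lower against a floor of 3 reads. The 1 higher call, spi-miR166a-p3_ath, had 9 reads in MET and 1 in NT (2.50, -0.36 to 7.95), and its interval included 0. The list had a median of -0.44, which lies just below 0 when the libraries are scaled by valid reads.

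In the copper-related list 2 of 16 sequences were called lower (12.5%, beside 5.29% of all) and 0 higher (beside 7.6%). Both were miR408, which acts on plantacyanin and laccase transcripts. spi-miR408b-3p_stu had 758 reads in MET and 962 in NT (-1.02, -1.16 to -0.88), and was called on 2 of the 5 other scalings. The 24 nt spi-miR408-3p_mtr begins with the same 21 bases and had 18 in MET and 34.5 in NT (-1.61, -2.50 to -0.73). miR397 and miR398 of the same list gave no call: spi-miR397 of 21 nt had 1024 reads in MET and 435 in NT (0.56, 0.40 to 0.73), and spi-miR398a-3p_stu had 1691 in MET and 1249 in NT (-0.24, -0.34 to -0.13).

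The GRAS-targeting list had 2 of 16 sequences called lower (12.5%, beside 5.29% of all), both named spi-miR171d. They differ by T21G and carried equal reads in each library, 26.5 each in MET and 36 in NT (-1.12, -1.93 to -0.38), so they count as 1 measurement. spi-miR171b-p3_mes had 339 reads in MET and 120 in NT (0.82, 0.52 to 1.14) and was not called. In the silencing machinery list 1 of 15 sequences was called lower, a share of 6.67%, near the 5.29% of all sequences. This was spi-miR168a-5p_ath, with 9.5 reads in MET and 16.5 in NT (-1.47, -2.65 to -0.12). It differs from the abundant AGO1-targeting guide spi-miR168a-5p by G14A, and that guide had 7673 reads in MET and 6886 in NT (-0.52, -0.56 to -0.47).

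Outside the family lists, 12 of 136 sequences were called lower and 4 higher, with a median of -0.43 over 50. These were shares of 8.82% and 2.94%, beside 5.29% and 7.6% of all sequences. Several carry names from distant plants and end in CCA, the 3′ end of mature tRNAs, a feature chosen after their values had been seen. Of 31 tested sequences ending in CCA, 6 were called lower and 1 higher (19.4% and 3.23%), beside 4.53% and 7.84% of those with other ends and 5.29% and 7.6% of all. Their summed reads had a log2 ratio of -1.18 (-1.25 to -1.11), and of -0.71 (-0.85 to -0.58) without spi-miR894_ppt. That sequence, the best-read lower call, had 1995.5 reads in MET and 3190 in NT (-1.35, -1.43 to -1.27).

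A set of 7 sequences named spi-miR5139_rgl or spi-miR8155_cpa ended in the last 18 bases of the 19 nt form printed above, and 4 of them were called lower. The 21 nt spi-miR5139_rgl had 116.5 reads in MET and 201 in NT (-1.46, -1.81 to -1.13), and the 19 nt form had 33.5 in MET and 69 in NT (-1.72, -2.33 to -1.08). A 19 nt spi-miR8155_cpa, which differs from that 19 nt form by A1T, had 7 in MET and 14 in NT (-1.67, -3.22 to -0.27). Summed, the set held 174.5 reads in MET and 310 in NT (-1.50, -1.78 to -1.23). They share these bases and differ only at the 5′ end, so they are not separate measurements. Their 4 lower calls are nevertheless among the 6 counted above for sequences ending in CCA. spi-miR6173_hbr, which does not end in CCA, had 207 reads in MET and 282 in NT (-1.12, -1.39 to -0.86).

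Sequences named after tomato miRNAs miR9469 to miR9479 gave 4 higher calls and 1 lower among 30, with a median of -0.09 over 16. These were shares of 13.3% and 3.33%, beside 7.6% and 5.29% of all sequences. spi-miR9473-5p had 80 reads in MET and 19 in NT (1.40, 0.66 to 2.20), and spi-miR9475-p3 of 22 nt had 19 in MET and 2.5 in NT (2.25, 0.52 to 5.72). The other 2 higher calls, spi-miR9478-p3 and a 24 nt spi-miR9478-3p, had 6 and 5 reads in MET and 0 in NT. Of 122 sequences named after potato miRNAs miR7979 to miR8051, 7 were called higher and 3 lower, shares of 5.74% and 2.46%, both below the 7.6% and 5.29% of all sequences. Among them spi-miR8006-5p_stu of 20 nt had 9.5 reads in MET and 0 in NT, at least 1.98-fold higher against the floor.

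Of the PC sequences, 12 of 88 were called higher and 5 lower, 13.6% and 5.68%, with a median of -0.19 over 59. All sequences gave 7.6% and 5.29%. The authors kept a PC sequence only where it reached 10 normalized reads in at least 1 library, a filter not given for conserved names. It could thus enter through the library where it was high, so these shares do not compare evenly. Among sequences reaching 10 in MET or NT, 12 of 59 PC names were called higher and 4 lower, beside 35 and 27 of all 271. PC-49-3p (hairpin on chromosome 5, 60646141 to 60646344, plus strand) had 2045 reads in MET and 520 in NT (1.30, 1.16 to 1.44) and held more of the reads than any other PC sequence. Of the 12 PC sequences of 21 nt, 4 (33.3%) were called higher and 0 lower. PC-70-5p had 24 reads in MET and 2.5 in NT (2.59, 0.90 to 6.04), and PC-52-5p had 16 in MET and 2 in NT (2.33, 0.24 to 5.49). Of the 63 tested PC sequences of 24 nt, 7 (11.1%) were called higher and 4 (6.35%) lower. PC-3-5p had 76 reads in MET and 18 in NT (1.40, 0.65 to 2.23), PC-80-3p had 23 in MET and 30 in NT (-1.06, -1.91 to -0.22), and PC-88-3p had 14 in MET and 24 in NT (-1.45, -2.52 to -0.44). PC-62-3p was called lower at 0 reads in MET and 5 in NT.

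The arms of a hairpin were compared with each other as the list pairs them. In 51 hairpins each arm reached 10 normalized reads in MET or NT. Both arms were called in the same direction in 5 of them (miR396a, miR6023, miR6026, PC-5 and PC-12, all higher), in opposite directions in 0, and 1 arm alone was called in 12. The arms' ratios had the same sign in 29 hairpins and opposite signs in 22 (35 with the same sign when scaled by valid reads). In 15 of the 51 an arm's sequence is listed under more than 1 entry, so its reads need not come from that precursor alone, and these hairpins were not taken as separate measurements. Among the other 36, both arms were called in 4 (all but miR396a), 1 arm alone in 9, and the ratios had the same sign in 21 and opposite signs in 15. The 9 include the spi-miR171d hairpins on chromosome 12, whose called arms carried equal reads and count as 1 measurement.

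The share of the arms differed between the libraries in 13 of the 51 hairpins by Fisher's exact test on the raw reads, adjusted over the 51 (p of 0.05 or less), a measure that no scaling of the libraries can change. Of these 13, 8 had arms that are each listed once, among them a spi-miR319a hairpin on chromosome 3. Its 3′ arm carried reads equal to those of the other spi-miR319a sequence. The smallest p belonged to miR9470 (chromosome 8, 393508 to 393984, plus strand). Its 5′ arm had 50 reads in MET and 67 in NT (-1.10, called lower) and its 3′ arm 2602 in MET and 936 in NT (0.80, not called), with an adjusted Fisher's exact p of 2.93e-10. In miR169e the 5′ sequence, which the list also gives for 2 hairpins on chromosome 7, had 58 reads in MET and 30.3 in NT and the called 3′ arm 186 and 242 in the same libraries (adjusted exact p = 0.00199). In PC-3 the called 5′ arm had 76 reads in MET and 18 in NT and the 3′ sequence, also listed as PC-4-3p of a hairpin on chromosome 3, 15 in both (adjusted exact p = 0.0108). In miR396a, whose 5′ sequence is shared with the hairpin on chromosome 7, the arms had 1396.5 and 1573 reads in MET and 388 and 385 in NT (adjusted exact p = 0.264).

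**Figure D5:**
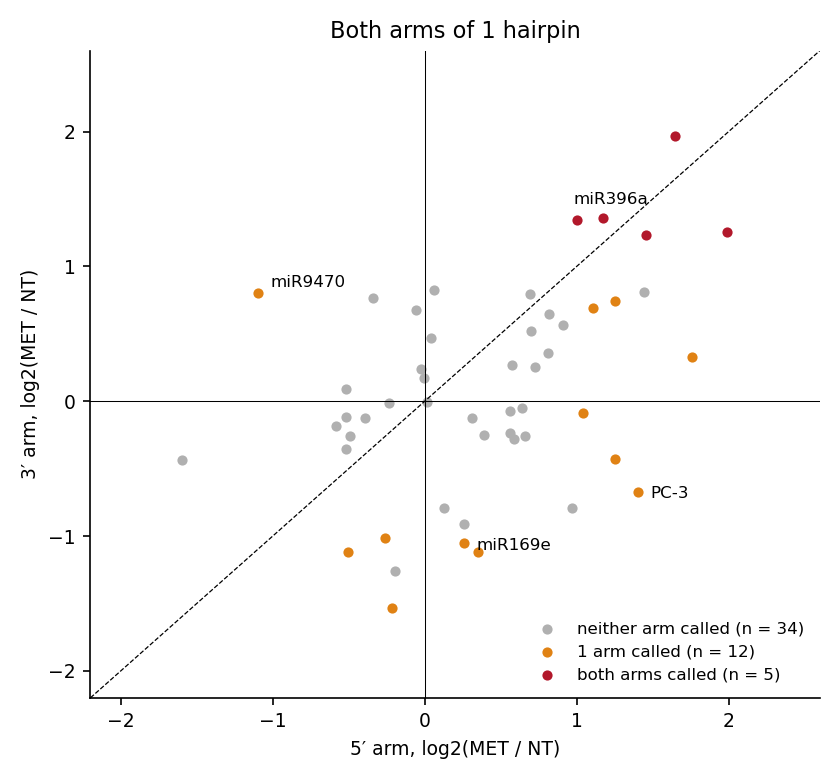
Log2 ratio of the normalized reads, MET over NT, of the 3′ arm (vertical axis) against the 5′ arm (horizontal axis) in 51 hairpins whose arms each reached 10 normalized reads. Red points have both arms called (5 hairpins), orange points 1 arm (12) and grey points none (34); the dashed line marks equal ratios, and miR9470 and PC-3 lie far from it.

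The MET library was also set against the sRNA library of plants kept at 40/40 °C for 8 h, the acutely elevated temperature (AET). Of the 599 sequences read in MET or AET, 68 (11.4%) were called higher and 59 (9.85%) lower in MET than in AET, 21.2% together. Of the sequences called between MET and NT, 24 of the 77 read in MET or AET were also called between MET and AET. Both comparisons use the MET library, so this number is no separate evidence on either. spi-miR6026-p5 had 35 raw reads in MET and 16 in AET (log2 ratio of the normalized reads 1.02), and spi-miR169f-p5_nta had 135 in MET and 50 in AET (1.33). spi-miR167a differed little, with 4624 in MET and 3885 in AET (0.14). spi-miR166m_gma had 18 reads in MET and 39.8 in AET (-1.25). PC-88-3p, called lower in MET than in NT, had 14 reads in MET and 3 in AET (2.11).

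Degradome libraries, which count the 5′ ends left by cleaved transcripts, held sites for 17 of the 78 called sequences, 7 higher and 10 lower, in MET or NT. Among all 629 distinct sequences 143 had a listed site, a number that can include sites seen in AET alone. The values are tags scaled to a fixed library total (TPB), a single tag being 87.2 TPB in MET and 84.9 in NT, from 1 library each, and they are given without a test. Nearly identical sequences share sites, so a site cannot be given to 1 of them. Of the 9 sites of miR396a-5p, 4 had more tags in MET, 4 fewer and 1 the same number. A site in a GRF5 transcript (Solyc12g096070.1.1) had 872 TPB in MET and 170 in NT, and one in another GRF5 transcript (Solyc08g075950.1.1) had 262 in MET and 170 in NT. The 4 with fewer tags, in transcripts annotated GRF5 (Solyc08g005430.2.1), GRF4, FRS5 and DRM2, each had 0 TPB in MET and 84.9 in NT, a single tag. The others with more tags in MET, in transcripts annotated GRF5 (Solyc07g041640.2.1) and KIP1L, each had a single tag in MET and 0 TPB in NT. All 3 sites of miR159 had more tags in MET, each by a single tag, among them DUO1 (Solyc01g090530.1.1) with 174 TPB in MET and 84.9 in NT. For miR156f-5p_stu, a site in SPL2 (Solyc05g015510.2.1) had 0 TPB in MET and 84.9 in NT, and one in SPL9 a single tag in each library.

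Sites of sequences called lower, like those of sequences called higher, had more tags in MET in some transcripts and fewer in others. For miR171d, a site in HAM3 (Solyc11g013150.1.1), a GRAS factor, had 610 TPB in MET and 1359 in NT, and one in a second HAM3 transcript (Solyc01g090950.2.1) had 174 in MET and 84.9 in NT. Of the 6 sites of miR166g-3p_osa, all in transcripts annotated PHB, 5 had fewer tags in MET and 1 more. The best-covered had 1046 TPB in MET and 1868 in NT (Solyc02g069830.2.1), 610 in MET and 1189 in NT (Solyc11g069470.1.1) and 349 in MET and 170 in NT (Solyc02g024070.2.1). The AGO1 site (Solyc06g072300.2.1) listed for miR168a-5p_ath had 610 TPB in MET and 425 in NT. For the PC names, PC-52-5p had a site in LRR-TPK (Solyc12g014350.1.1) with 174 TPB in MET and 0 in NT. PC-49-3p had sites in 5 receptor-like protein transcripts with 0 in MET and 14.2 each in NT. That value is below that of 1 tag, so the 5 sites do not stand for 5 separate tags.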

How the data were processed

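Small RNA libraries of LA2093 leaves were sequenced on an Illumina Hiseq2500. The authors analysed the reads with the ACGT101-miR program, kept 19 to 24 nt, removed matches to other RNA classes, mRNAs and repeats, and compared the rest with plant miRNAs of miRBase allowing 1 mismatch. They deposited raw reads as estimated counts (reads with several places were split, which left 126 values in MET and 120 in NT that were not whole) and normalized reads, a score equal within rounding to the raw reads times 1 factor per library (0.833 in MET, 1.33 in NT). The degradome values deposited by the authors are a score too, tags scaled to a fixed total, made with CleaveLand on tomato transcripts. No source used here gives the genome build of the hairpins. The deposited tables of the authors' own comparisons (log2 ratios and p-values of conserved and predicted miRNAs) were not used. No column of sample values was left without a sample (0).

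The 759 entries were reduced to 629 distinct sequences, and the calls followed the study's rule (both p-values 0.05 or less, log2 ratio at least 1 in size) with totals over distinct sequences. Tests used rounded reads, intervals are exact conditional binomial ones (95%), and a library at 0 was set to 3 reads for bounds. Names were given to called sequences with the 5 largest ratios or the most reads per class and direction, the 10 most abundant, those at 0 reads in a library, families with several calls, arms, near-identical groups and sequences the study names. Other uncalled sequences of these families were named to describe them, chosen after their values were seen. Members and lists were chosen with earlier results of these data known. The rule was also run on simulated reads with counting error alone, so that run tells nothing about the spread between plants. The alternatives tried were 5 other scalings, raw reads or all entries in the totals, read filters, adjustment, no fold threshold, a binomial test and edgeR 4.0.16 with an assumed spread. Python 3.11.15, scipy 1.17.1, pandas 2.3.3, numpy 2.4.6, matplotlib 3.10.9 and R 4.3.3 were used.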

Additional observations from a re-analysis of the deposited data

Results flagged for a closer look

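In the AET library, 10 sequences had more than 3 raw reads, the limit that a count of 0 allows, while both the MET and the NT library held 0. PC-48-3p had 15 reads, PC-64-5p 13 and a 24 nt form of spi-miR8031-p3_stu 13. spi-miR156b-p3 had 8 reads, spi-miR7984b-p3_stu 7 and spi-miR7983-p3_stu 6. spi-miR1886i-p3_stu, spi-miR1919_nta, spi-miR9674a-5p_ata and spi-miR6153_nta had 5 reads each. They were noticed because the comparison of MET with NT cannot use them.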

How the results depend on the processing

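With 1 library per temperature, no setting here measures the spread between plants, and calls on few reads move with the test. The 46 higher calls became 73 when scaled by valid reads, 26 after Benjamini-Hochberg adjustment, 92 without a fold threshold and 28 by the exact conditional binomial test. The 32 lower calls became 21 when scaled by listed reads, 13 after the adjustment and 18 over sequences with whole raw reads. With edgeR and an assumed biological coefficient of variation of 0.2 or 0.4, 0 sequences were higher and 1 lower (spi-miR166m_gma) after adjustment, and 23 higher and 23 lower (at 0.2) or 2 higher and 7 lower (at 0.4) at an unadjusted p of 0.05 or less. The 24 calls also made between MET and AET became 39 when scaled by valid reads. The log2 ratio of the 24 nt share was -0.07, and became -0.43 without spi-miR166a, -0.22 over conserved names and 0.0309 over sequences with whole raw reads. List medians less than 0.42 below 0 turn positive when scaled by valid reads, and those of the potato-annotated and GRAS-targeting lists turn negative when spi-miR166a is left out of the totals. Among the named sequences no call reversed; 13 calls were lost and 7 gained when scaled by valid reads, and 12 were lost and 3 gained by listed reads. Lower calls lost on both of these scalings include spi-miR169e-3p, spi-miR171d, spi-miR166g-3p_osa, spi-miR9470-p5 and spi-miR408b-3p_stu. The cause of these changes was not tested. No paired analysis was possible because each temperature has 1 library.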

Other observations

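The lists and families that follow gave no call in either direction. The 14 sequences of the sulfate and phosphate list (miR395, miR399, miR827 and miR2111) summed to 48.2 raw reads in MET and 34.8 in NT, a log2 ratio of -0.21 (-0.88 to 0.45), an interval that excludes a 2-fold difference of the sum in either direction but not a smaller one. The auxin receptor and TAS3 list summed to 832 reads in MET and 505 in NT (0.05, -0.11 to 0.21). miR4376, which acts on a calcium pump transcript in tomato, had 326 reads in MET and 126 in NT (0.70, 0.40 to 1.01). The 3 sequences of the other MYB-targeting list summed to 146 reads in MET and 92 in NT (-0.01, -0.39 to 0.38).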
